A study of Mus musculus with 25 samples.

Results

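The 10 genes described here, Glul, Oat, Lhpp, Slc1a2, Rhbg, Cyp2e1, Cyp1a2, Axin2, Lgr5 and Tbx3, are known markers of the hepatocytes around the central vein of the liver lobule. They were taken by symbol from a count table of 56980 genes, and all 10 passed the filter on low counts. Each count is the number of sequenced reads of poly-A RNA, taken from homogenized whole liver, that fell in the exons of a gene. The mice were male C57BL/6J, 8 weeks old at the start and 20 at the end, and were fed for 12 weeks. On the regimen called FAT-MASH they ate chow whose cholesterol was 1.25%, whose sucrose was 41% and whose fat was 21.1%, drank water with 23.1 g/L fructose and 18.9 g/L glucose, and were injected weekly with carbon tetrachloride, a liver toxin. Mice on normal diet ate a standard chow with plain water. Mannose, a hexose sugar, was added to the drinking water at 5% or 20% (w/v), as prevention over the whole 12 weeks or as therapy over the final 6.

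Batch 1, a batch as the labels name it, held 18 libraries in 6 groups of 3. These groups were FAT-MASH with 5% mannose as prevention, with 20% as prevention, with 5% as therapy, with 20% as therapy, FAT-MASH alone, and normal diet. Batch 2 held 7 libraries: 2 more of normal diet without mannose, numbered 4 and 5, 2 of normal diet with 5% mannose and 3 of normal diet with 20% mannose. FAT-MASH joins diet, sugar water and toxin in every group that received it, so the share of each in a difference cannot be told apart. Levels below are CPM, counts scaled to a common library size, after TMM scaling within a batch. Values from the 2 batches are not set on one scale unless this is said.

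Blood enters the lobule beside the portal veins and leaves it by the central vein, and hepatocytes along this path carry out different work. Endothelial cells of the central vein release Wnt ligands and R-spondins, and the beta-catenin signalling that these set off in nearby hepatocytes keeps the pericentral programme on. That programme takes up ammonia that escaped the periportal urea cycle and fixes it as glutamine, and it holds most of the cytochrome P450 enzymes. Cyp2e1, one of these, turns carbon tetrachloride into the radical that injures the same zone.

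The promoters of these genes are shown where they hold CTTTGA, the core of the site that the TCF partners of beta-catenin are known to bind. The RefSeq promoter table (build GRCm38.p6) matched 6 of the 10 genes, namely Glul, Oat, Cyp2e1, Cyp1a2, Slc1a2 and Axin2, while Lhpp, Rhbg, Lgr5 and Tbx3 were not matched. CTTTGA on either strand lay in the 250 bases upstream of the start in 3 of these 6 genes, and in 13.8% of the 32851 promoters of the table. The longer CTTTGAT, which contains the core, was found for Slc1a2, and in 3.21% of all promoters. GTTAAT, part of the HNF1 site, and GCGTG, the core bound by the aryl hydrocarbon receptor, were in none of the 6 windows, and in 6.43% and 28.2% of all promoters. Capitals mark the core, which reads TCAAAG where it lies on the opposite strand of the gene. Positions count back from the RefSeq start, at −135 to −130 for Cyp2e1, −243 to −238 for Cyp1a2, and −206 to −201 and −77 to −72 for Slc1a2. A match describes these letters and is not evidence of binding.
Cyp2e1, chr7:140763644-140763729, plus strand: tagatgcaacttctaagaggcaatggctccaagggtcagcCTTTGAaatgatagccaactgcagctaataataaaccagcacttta
Cyp1a2, chr9:57683853-57683905, minus strand: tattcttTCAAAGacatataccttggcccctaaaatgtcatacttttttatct
Slc1a2, chr2:102706192-102706406, plus strand: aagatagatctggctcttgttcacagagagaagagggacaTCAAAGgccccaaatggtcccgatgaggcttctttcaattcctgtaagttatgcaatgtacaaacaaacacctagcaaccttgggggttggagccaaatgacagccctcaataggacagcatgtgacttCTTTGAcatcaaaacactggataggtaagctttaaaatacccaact

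In the genome build of the counts, GRCm39, Oat (7:132159207-132178127, minus strand) and Lhpp (7:132212367-132308149, plus strand) are neighbours. They lie 34239 bases apart on opposite strands, with 2 annotated genes between them, Nkx1-2 and Gm16764. Tbx3 (5:119808734-119822789, plus strand) shares 258 exon bases with the antisense gene Tbx3os1. The counting did not use strand, so reads of these 2 genes cannot be told apart there. Rhbg shares 1190 of its 1937 exon bases with Gm38392 on the same strand, and reads that fit both genes were by default not counted. Its level is therefore uncertain. The remaining genes lie at 1:153775690-153785469 (Glul), 7:140343652-140354900 (Cyp2e1), 9:57584220-57590986 (Cyp1a2), 2:102489004-102621129 (Slc1a2), 3:88150181-88162016 (Rhbg), 11:108811175-108841609 (Axin2) and 10:115286216-115423685 (Lgr5).

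Libraries held 31298299 to 56010646 counts in batch 1 and 35971380 to 49752882 in batch 2. Hepatocyte markers such as Alb were abundant in every library, and summed to between 77100 and 130000 CPM over their 10 genes. The zone itself was not dissected, so each value is an average over the lobule and over all cell types of the liver. In such bulk samples fewer cells of a type and less RNA per cell cannot be told apart. Normal diet replicate 4, in batch 2, stood below its partner, replicate 5, for 8 of the 10 genes, all but Axin2 and Tbx3, and results that rest on it are given with and without it. Sources used here do not give cages or litters per mouse, so p-values measure the spread between these mice.

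Cyp2e1 had the highest level per kilobase of exon of the 10 genes in every group. Rhbg had the lowest over its whole exon length, but over the 747 exon bases it shares with no other gene it stood above Lgr5, at 1.77 CPM per kb on FAT-MASH alone and 2.48 on normal diet, where Lgr5 had 0.747 and 1.16. On FAT-MASH alone, mean levels per length were 2160 CPM per kb for Cyp2e1, 130 for Cyp1a2, 82.8 for Glul and 42.2 for Oat, then 5.22 for Tbx3, 3.16 for Lhpp, 2.09 for Slc1a2 and 2.07 for Axin2. On normal diet in batch 1 they were 2750 CPM per kb for Cyp2e1, 481 for Oat, 478 for Cyp1a2 and 272 for Glul, followed by 29.1 for Lhpp, 9.78 for Slc1a2, 5.06 for Tbx3, 1.67 for Axin2, 1.16 for Lgr5 and 0.957 for Rhbg. In both groups the 4 metabolic enzymes were far above the signalling genes, while Lhpp and Slc1a2 stood below Tbx3 on FAT-MASH and above it on normal diet.

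**Figure D1:**
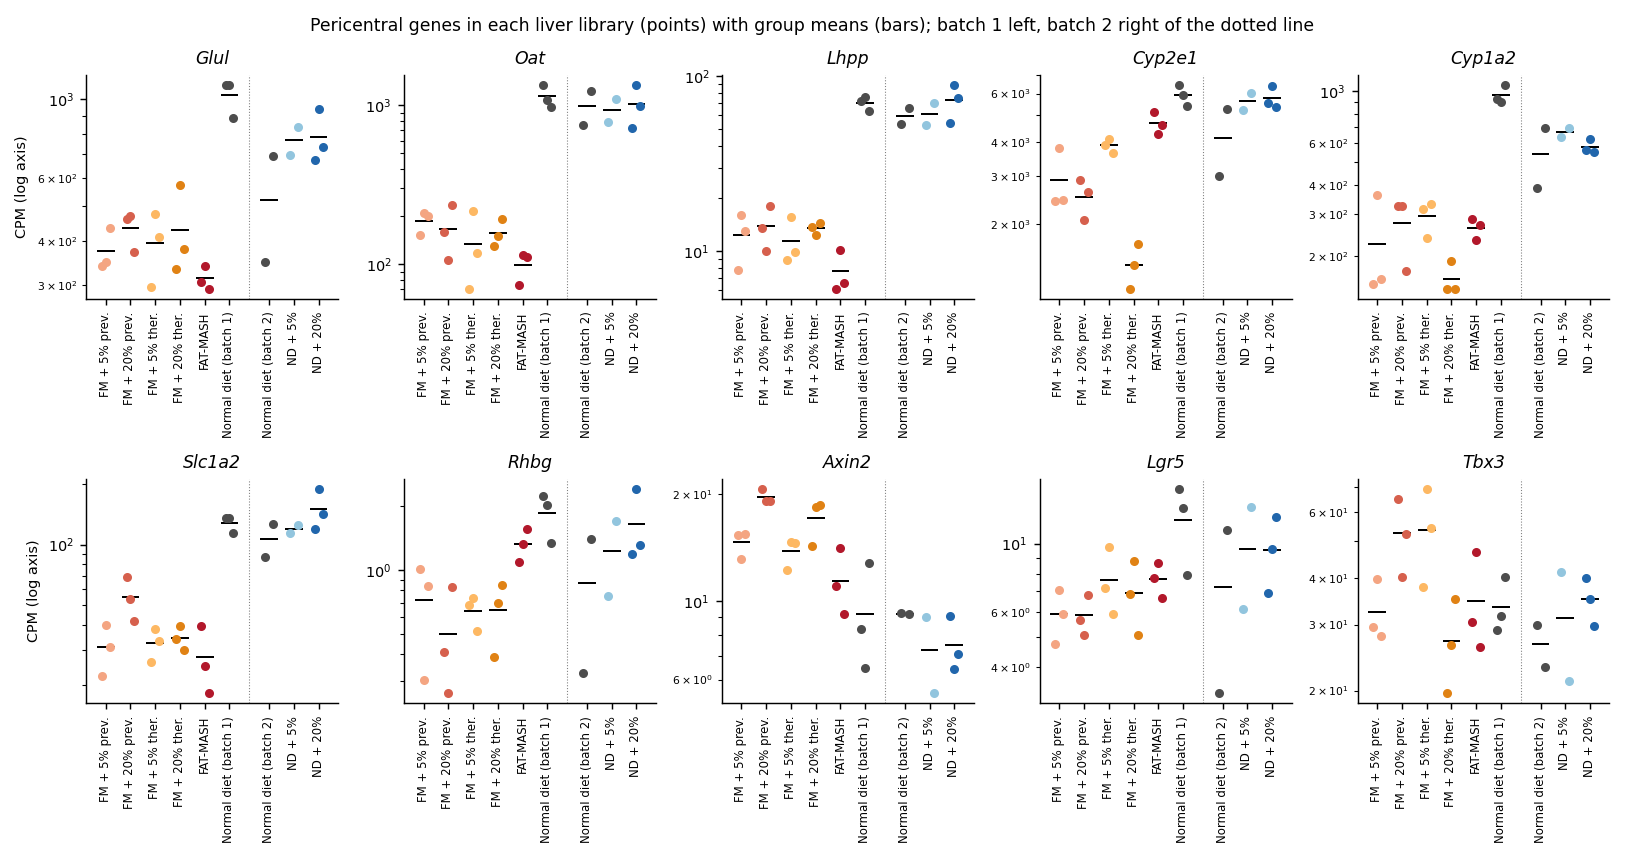
Level of each of the 10 genes in all 25 libraries, in CPM scaled by TMM within a batch, on log axes, with 1 panel a gene; points are libraries and bars are group means. Oat, Lhpp, Glul, Cyp1a2 and Slc1a2 are lower in all 5 groups on FAT-MASH than on normal diet of batch 1, and Cyp2e1 is lowest in the 3 livers with 20% mannose as therapy (1160 to 1690 CPM).

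FAT-MASH alone against normal diet asks what the regimen did. Glul, Oat, Lhpp, Slc1a2 and Cyp1a2, which encode enzymes and a carrier, were between 3.29-fold and 11.4-fold lower on FAT-MASH. The cytochrome gene Cyp2e1, the transporter gene Rhbg and the signalling genes Axin2, Lgr5 and Tbx3 did not pass the test. In all, 5 of the 10 genes fell, where 5.92% of the 19571 genes tested fell, 7.81% rose and 13.7% changed in either direction. The libraries of both groups did not overlap for 6 of the 10 genes, against 32.8% of all genes tested. The median log2 fold change was −1.18 over the 10 genes and 0.03 over all genes tested. Calls are those of edgeR's quasi-likelihood test at a Benjamini-Hochberg adjusted p under 0.05, and every value of a group is a mean ± SD over 3 mice unless its libraries are given.

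Among the genes of ammonia and amino acid handling, Oat, ornithine aminotransferase, had 73.7, 114 and 111 CPM on FAT-MASH and 1350, 1080 and 973 CPM on normal diet. Every FAT-MASH liver lay far below every normal-diet liver, a difference of 11.4-fold (log2 fold change −3.51 ± 0.34 SE, edgeR adjusted p 1.12e-06). Its neighbour Lhpp, which encodes a phosphatase, had 6.09, 10.2 and 6.59 CPM on FAT-MASH and 72.1, 75.9 and 63.0 CPM on normal diet. It was 9.24-fold lower (−3.21 ± 0.28, edgeR adjusted p 2.37e-07), and the groups again did not overlap. Oat and Lhpp moved most alike among the 10 genes, with a root mean square difference of 0.22 between their centred log2 group means over the 6 groups of batch 1.

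Glul, glutamine synthetase, is the classical marker of the cells next to the central vein. It had 306, 340 and 293 CPM on FAT-MASH and 1100, 1100 and 889 CPM on normal diet. It was 3.29-fold lower, with no overlap (−1.72 ± 0.19, edgeR adjusted p 4.95e-06). Slc1a2, a glutamate transporter, had 39.3, 25 and 18.3 CPM on FAT-MASH and 136, 135 and 114 CPM on normal diet, and was 4.66-fold lower without overlap (−2.22 ± 0.25, edgeR adjusted p 5.76e-06). Rhbg, an ammonium transporter, had 1.32 ± 0.231 CPM on FAT-MASH and 1.85 ± 0.466 CPM on normal diet, which overlapped and did not pass the test. Its counts were low, between 10 and 108 in a library.

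The cytochromes followed, 1 past the test and 1 not. Cyp1a2, an enzyme of caffeine and arylamine oxidation, had 285, 232 and 270 CPM on FAT-MASH and 924, 895 and 1060 CPM on normal diet. It was 3.66-fold lower without overlap (−1.87 ± 0.28, edgeR adjusted p 0.00014). Cyp2e1 had 5140, 4260 and 4590 CPM on FAT-MASH and 6460, 5920 and 5410 CPM on normal diet. All 3 FAT-MASH livers lay below all 3 normal-diet livers, but at 1.27-fold the difference did not pass the test (−0.34 ± 0.17, edgeR adjusted p 0.2). It passed in a fit of these 6 libraries alone and when no filter on low counts was used, and adjusted p over all alternatives was 0.0378 to 0.39.

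Of the signalling genes, Axin2, a scaffold that restrains beta-catenin and is itself switched on by it, had 11.0, 14.1 and 9.16 CPM on FAT-MASH and 8.33, 6.45 and 12.8 CPM on normal diet. Lgr5, a receptor for R-spondins, had 7.71, 8.66 and 6.65 CPM on FAT-MASH and 15, 13 and 7.90 CPM on normal diet. Tbx3, a transcription factor, averaged 34.6 ± 11.0 CPM on FAT-MASH and 33.5 ± 5.81 CPM on normal diet. All 3 overlapped between the groups. Normal diet replicate 3 had the highest Axin2 and the lowest Lgr5 of its group. Without it Axin2 was higher on FAT-MASH (0.61, edgeR adjusted p 0.0452, with 0.0452 to 0.826 over all alternatives) and Lgr5 lower (−0.88, edgeR adjusted p 0.0306, with 0.0303 to 0.338 over all alternatives).

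**Figure D2:**
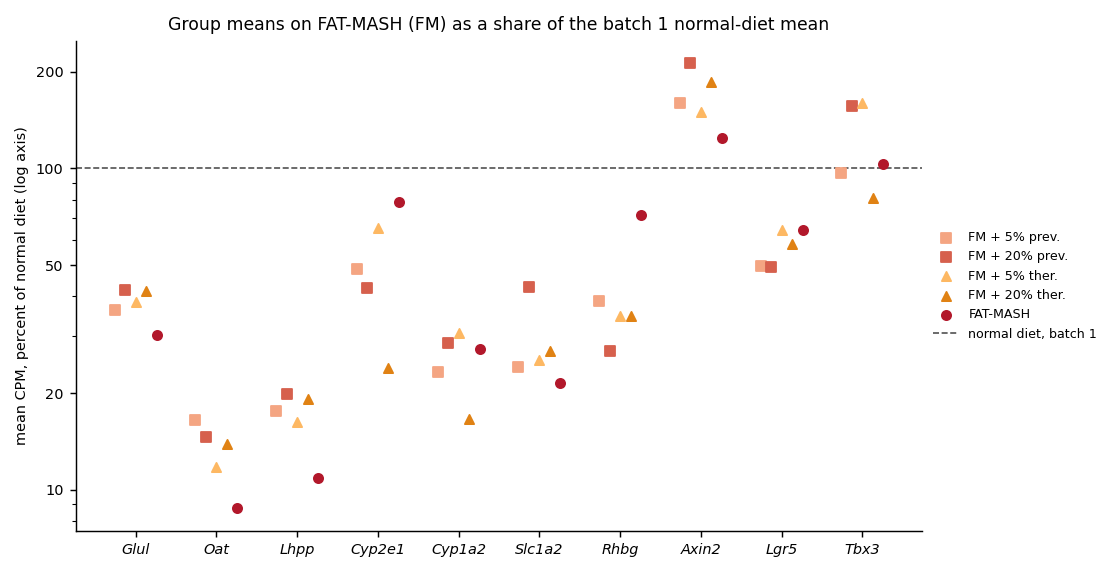
Mean CPM of each gene in the 5 groups on FAT-MASH as a percent of the batch 1 normal-diet mean, on a log axis, with the dashed line at 100 percent. Oat stands at 11.8% to 16.5% with mannose and at 8.74% on FAT-MASH alone, while Cyp2e1 stands at 23.9% with 20% mannose as therapy and at 78.8% on FAT-MASH alone.

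Marker genes of other liver cells also moved with the regimen. The 10 macrophage markers, of which 6 rose, summed to 443 to 781 CPM on FAT-MASH and 207 to 212 CPM on normal diet. The 10 stellate cell and fibroblast markers, of which 7 rose, summed to 520 to 673 CPM on FAT-MASH and 292 to 353 CPM on normal diet. The 13 endothelial markers summed to 302 to 344 CPM on FAT-MASH and 232 to 275 CPM on normal diet, with 3 higher. The 10 general hepatocyte markers summed to 105000 to 119000 CPM on FAT-MASH and 115000 to 129000 CPM on normal diet, with 2 lower. Of 7 neutrophil and lymphocyte markers that could be tested, 2 rose. The part of these cells in the falls of the 5 genes was not tested.

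Each of the 4 mannose groups was next set against FAT-MASH alone, to see what mannose added to the regimen. These comparisons share the 3 FAT-MASH libraries with each other and with the comparison above, so their values are given side by side. Cyp2e1 fell in 3 of the 4, and furthest with 20% mannose. With 20% mannose Lhpp and Axin2 rose in both schedules and Slc1a2 rose as prevention. Glul and Oat averaged higher than on FAT-MASH alone in all 4 groups and passed the test in none.

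**Figure D3:**
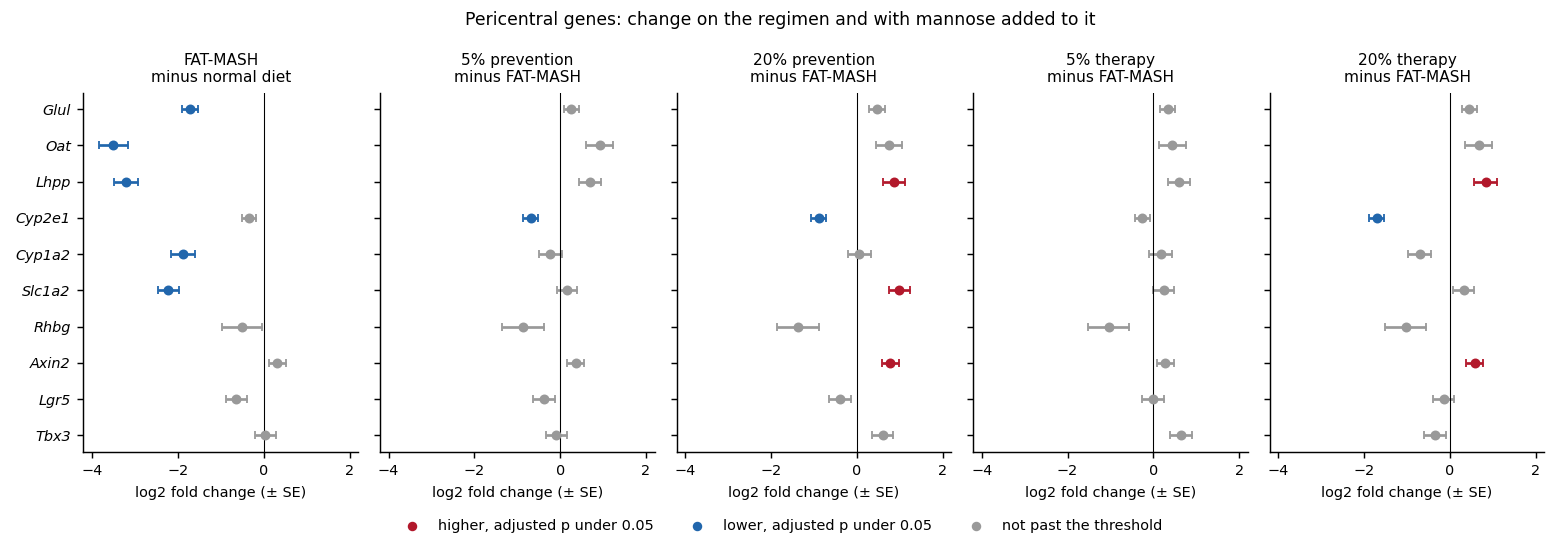
Log2 fold change of each gene for FAT-MASH minus normal diet and for each of the 4 mannose groups minus FAT-MASH, with bars of 1 SE from edgeR's fit; red points were higher and blue points lower at an adjusted p under 0.05, and grey points did not pass. Cyp2e1 is blue in 3 of the 4 mannose panels and farthest left with 20% as therapy (−1.71), while Oat, Lhpp, Slc1a2, Cyp1a2 and Glul are blue in the panel of the regimen.

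Cyp2e1 had 2430, 3800 and 2440 CPM with 5% mannose as prevention, 2890, 2060 and 2620 CPM with 20% as prevention, 3900, 4100 and 3650 CPM with 5% as therapy, and 1160, 1420 and 1690 CPM with 20% as therapy, against 5140, 4260 and 4590 CPM on FAT-MASH alone. All 12 livers with mannose were below all 3 without it, and the 3 with 20% as therapy were below every other liver of batch 1. With 20% as therapy Cyp2e1 was 3.28-fold lower (log2 fold change −1.71 ± 0.17 SE, edgeR adjusted p 1.1e-06), and with 20% as prevention 1.85-fold lower (−0.89 ± 0.17, edgeR adjusted p 0.0014). These 2 falls passed in every alternative run, with log2 fold changes of −1.85 to −1.41 for therapy and −1.0 to −0.7 for prevention. With 5% as therapy it did not pass (−0.26 ± 0.17).

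With 5% as prevention Cyp2e1 was 1.61-fold lower (−0.69 ± 0.17, edgeR adjusted p 0.037), but this call was fragile. It was lost under 9 of 14 alternatives, among them leaving out any of the 3 FAT-MASH livers or replicate 1 or 3 of the mannose group, and the replicate block (adjusted p 0.058). Over all alternatives the adjusted p was 4.41e-06 to 0.184. Cyp2e1 was the sole gene of the 10 called in this comparison, where 2.27% of all genes tested were called, 0.966% higher and 1.31% lower. Libraries did not overlap for 3 of the 10, Oat, Cyp2e1 and Rhbg, and for 20.2% of all genes tested.

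Cyp1a2, the other cytochrome, passed in none of these comparisons. At 20% as therapy it had 145, 190 and 145 CPM, all below the 285, 232 and 270 CPM of FAT-MASH alone (−0.71 ± 0.27, edgeR adjusted p 0.0673). In the other groups it overlapped with FAT-MASH alone, at 224 ± 120 CPM with 5% as prevention, 275 ± 87.8 CPM with 20% as prevention and 295 ± 51.0 CPM with 5% as therapy, against 263 ± 27.4 CPM on FAT-MASH alone. In the therapy comparison at 20%, Cyp1a2 passed in 3 alternatives: voom with quality weights, no filter on low counts, and a fit of the compared groups alone.

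With 20% mannose as prevention, 4 of the 10 genes were called, Lhpp, Slc1a2 and Axin2 higher and Cyp2e1 lower, where 15.1% of all genes tested were called, 6.83% higher and 8.26% lower. Libraries did not overlap for 5 of the 10, and for 32.1% of all genes tested. Slc1a2 had 68.9, 53.9 and 41.7 CPM with this mannose, against 39.3, 25 and 18.3 CPM on FAT-MASH alone, so each mannose liver lay above each FAT-MASH liver (1.98-fold, 0.99 ± 0.24, edgeR adjusted p 0.00821). Without replicate 1 of the mannose group the adjusted p was 0.0501, the highest of its alternatives, of which the lowest was 9.68e-13. It still stood at 42.8% of the normal-diet mean.

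Axin2 had 20.7, 19.1 and 19.2 CPM with 20% as prevention, against 11.0, 14.1 and 9.16 CPM on FAT-MASH alone, again without overlap (1.72-fold, 0.78 ± 0.20, edgeR adjusted p 0.0104). This call was lost without FAT-MASH replicate 3 (adjusted p 0.06, with a range over alternatives of 0.000111 to 0.06). With 20% as therapy Axin2 had 14.3, 18.4 and 18.6 CPM, above all FAT-MASH livers (1.5-fold, 0.58 ± 0.20, edgeR adjusted p 0.0417). That call was lost under the replicate block (adjusted p 0.0569), in the fit of all 25 libraries, and without FAT-MASH replicate 1 or 3 or mannose replicate 2 or 3, with adjusted p of 0.00206 to 0.167 over all alternatives. At 5% it averaged 14.7 ± 1.33 CPM as prevention and 13.8 ± 1.41 CPM as therapy, neither past the test.

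Lhpp had 13.5, 10 and 18.2 CPM with 20% as prevention and 13.8, 12.4 and 14.4 CPM with 20% as therapy, against 6.09, 10.2 and 6.59 CPM on FAT-MASH alone. The therapy livers lay above all FAT-MASH livers, while 1 prevention liver, replicate 2, lay just below FAT-MASH replicate 2. The folds were 1.83 (0.87 ± 0.26, edgeR adjusted p 0.0284) as prevention and 1.77 (0.83 ± 0.26, edgeR adjusted p 0.0287) as therapy. Both calls were lost without FAT-MASH replicate 1 or 3, and without replicate 1 or 3 of the mannose group, and the first also with voom. Adjusted p over alternatives was 4.58e-07 to 0.152 and 1.83e-06 to 0.13, and Lhpp stayed at 19.8% and 19.2% of the normal-diet mean.

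As therapy at 20%, 3 of the 10 genes were called, Lhpp and Axin2 higher and Cyp2e1 lower, where 21.4% of all genes tested were called, 10.2% higher and 11.3% lower. Libraries did not overlap for 6 of the 10, and for 37.0% of all genes tested. The split of calls depended on the scaling. With library totals in place of TMM, 6 of the 10 genes were higher and 1 lower with 20% as prevention, and 5 were higher and 1 lower with 20% as therapy. The same change of scaling moved the median of all genes tested by 0.20 and 0.30 on the log2 scale for prevention and therapy. The share of higher genes among all called was then 76.4% for prevention, where TMM gave 45.3%, and 82.9% for therapy, where TMM gave 47.4%. Cyp2e1 was lower under both scalings.

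Glul had 460, 470 and 371 CPM with 20% as prevention and 333, 575 and 379 CPM with 20% as therapy, against 306, 340 and 293 CPM on FAT-MASH alone. Its livers as prevention lay above all 3 FAT-MASH livers, yet it passed in neither schedule (edgeR adjusted p 0.0994 and 0.0893). Oat averaged 188 ± 30.8 CPM with 5% as prevention, 167 ± 64.8 with 20% as prevention, 135 ± 74.9 with 5% as therapy and 158 ± 30.7 with 20% as therapy, against 99.6 ± 22.4 CPM on FAT-MASH alone. Library totals as scaling, under which the median of all genes lay above 0, gave calls for both Glul and Oat at 20% in both schedules. Glul also passed with 20% as therapy without replicate 1 of that group (0.61, edgeR adjusted p 0.0354, with 0.00209 to 0.506 over all alternatives).

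Rhbg averaged 0.501 ± 0.294 to 0.717 ± 0.370 CPM in the 4 mannose groups, against 1.32 ± 0.231 CPM on FAT-MASH alone, and passed in none (edgeR adjusted p 0.0631 with 20% as prevention). For 20% as prevention Rhbg did pass with DESeq2, with voom, and with edgeR without replicate 3 of that group (adjusted p 0.022, with 0.022 to 0.231 over all alternatives). Lgr5 averaged 5.86 ± 0.907 to 7.64 ± 1.96 CPM with mannose, against 7.67 ± 1.01 CPM on FAT-MASH alone. Tbx3 had 65.0, 40.2 and 52.3 CPM with 20% as prevention and 37.8, 69.0 and 54.3 CPM with 5% as therapy, against 30.5, 47.0 and 26.1 CPM on FAT-MASH alone. These Tbx3 values overlapped between groups, and neither difference passed. Without FAT-MASH replicate 2, Tbx3 was higher with 20% as prevention (0.89, edgeR adjusted p 0.0358, with 9.24e-05 to 0.371 over all alternatives).

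With 5% as therapy 0 of the 10 genes were called by edgeR or by DESeq2, where edgeR called 0.0358% of all genes tested, 7 genes (0.0255% higher and 0.0102% lower), and DESeq2 called 89. At an unadjusted p under 0.05 edgeR gave 3 of the 10 genes and 1219 of all genes tested. Libraries did not overlap for 2 of the 10, Cyp2e1 and Rhbg, and for 11.2% of all genes tested.

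Dose and schedule were compared within the 4 mannose groups on FAT-MASH. Averaged over both schedules, Cyp2e1 was 1.77-fold lower with 20% than with 5% mannose (−0.82 ± 0.12, edgeR adjusted p 9.48e-05), and this passed in every alternative that kept both schedules, with the highest adjusted p at 0.00087. It was the only one of the 10 genes called, where 17.0% of all genes tested were called, 8.12% higher and 8.92% lower. Slc1a2 (0.45 ± 0.17, edgeR adjusted p 0.0733) and Axin2 (0.36 ± 0.14, edgeR adjusted p 0.0823) missed the threshold. With library totals as scaling 2 genes were higher and 1 lower, and the share over all genes tested is not given for that fit. Slc1a2 passed with DESeq2, with voom, in a fit of the compared groups, and without 5% prevention replicate 2 (adjusted p 0.0342) or 20% prevention replicate 3 (adjusted p 0.038).

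The dose difference was then taken within each schedule, comparisons added after seeing the data. As therapy, Cyp2e1 had 1160 to 1690 CPM with 20% and 3650 to 4100 CPM with 5%, without overlap (−1.45, edgeR adjusted p 1.06e-05). As prevention it had 2060 to 2890 CPM with 20% and 2430 to 3800 CPM with 5%, which overlapped and did not pass (−0.20, edgeR adjusted p 0.685). Within therapy Cyp1a2 (−0.88, edgeR adjusted p 0.0289) and Tbx3 (−0.99, edgeR adjusted p 0.00908) were also lower with 20% than with 5%, 3 of the 10 genes in all, where 17.7% of all genes tested were called, 8.33% higher and 9.33% lower.

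The dose difference itself differed between therapy and prevention for 2 of the 10 genes, Cyp2e1 and Tbx3, where 2.17% of all genes tested were called, 1.16% lower. With library totals as scaling 83.2% of all called genes were higher, where TMM gave 46.2%, and both genes were still called lower. For Cyp2e1 it was lower as therapy by a log2 value of 1.25 (−1.25 ± 0.24, edgeR adjusted p 0.0133), a call lost without replicate 1 of 5% as prevention (adjusted p 0.0506, the highest of its alternatives, of which the lowest was 3.95e-10). Tbx3 had 19.7, 26.4 and 35.2 CPM with 20% as therapy and 37.8, 69.0 and 54.3 CPM with 5% as therapy. As prevention Tbx3 had 65.0, 40.2 and 52.3 CPM with 20% and 29.5, 39.6 and 28.0 CPM with 5%. Its levels thus lay lower with 20% than with 5% as therapy and higher as prevention, without overlap in either (difference −1.69 ± 0.35, edgeR adjusted p 0.0182). This call was lost without replicate 1 of 5% as prevention, of 20% as prevention or of 20% as therapy, with adjusted p of 1.51e-16 to 0.0645 over all alternatives. Cyp1a2 (−1.17 ± 0.38, edgeR adjusted p 0.114) missed the threshold, and passed with voom, without the filter on low counts, and without replicate 2 of 5% or replicate 3 of 20% as prevention.

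Therapy minus prevention, averaged over both doses, called 0 of the 10 genes with edgeR and with DESeq2, and 0.0% of all genes tested with edgeR, where DESeq2 called 21. At an unadjusted p under 0.05 edgeR gave 0 of the 10 and 1449 of all genes tested. For Cyp2e1 this average was −0.20 ± 0.12, and it joins values of opposite sign. With 5% mannose therapy stood above prevention (0.43, edgeR adjusted p 0.305), and with 20% therapy stood below prevention without overlap (−0.83, edgeR adjusted p 0.0685). Tbx3 was likewise 0.73 with 5% (edgeR adjusted p 0.237) and −0.95 with 20% (edgeR adjusted p 0.105), and none of these 4 values passed.

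Against normal diet, the regimen with mannose left most of the 10 genes lower. These 4 comparisons share the normal-diet libraries of batch 1. With 5% as prevention, 8 genes were lower and 1 higher, where 22.4% of all genes tested were called, 10.1% lower and 12.3% higher. With 20% as prevention, 8 were lower and 1 higher, where 33.3% were called, 15.1% lower and 18.2% higher. With 5% as therapy, 7 were lower, where 12.9% were called, 5.89% lower and 7.04% higher. With 20% as therapy, 8 were lower and 1 higher, where 36.1% were called, 16.7% lower and 19.4% higher. Glul, Oat, Lhpp, Slc1a2, Cyp1a2, Cyp2e1 and Rhbg were lower in all 4, and Lgr5 in all but 5% therapy. Axin2 was the gene that was higher, and Tbx3 passed in none.

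The libraries did not overlap with those of normal diet for 9 of the 10 genes with 5% as prevention, 10 with 20% as prevention, 7 with 5% as therapy and 8 with 20% as therapy. The same held for 38.0%, 46.4%, 29.3% and 48.2% of all genes tested in these comparisons. Axin2 reached 213% of the normal-diet mean with 20% as prevention (1.1 ± 0.20, edgeR adjusted p 0.000321) and 186% with 20% as therapy (0.90 ± 0.20, edgeR adjusted p 0.00154). Cyp2e1 stood at 48.7% with 5% as prevention, 42.5% with 20% as prevention, 65.4% with 5% as therapy and 23.9% with 20% as therapy. With library totals as scaling, the counts at 5% as therapy were 2 higher and 6 lower, and at 20% as prevention 2 higher and 8 lower. The share over all genes tested is not given for these 2 fits, so their counts show nothing particular to the 10 genes. Of the calls, 6 rested on single libraries. Those of Rhbg with 5% as prevention and as therapy, of Axin2 with 5% as prevention, of Cyp2e1 with 5% as therapy, and of Lgr5 with 20% as therapy were lost without normal diet replicate 1 and without replicate 2, and that of Rhbg with 20% as therapy without replicate 1. Among mannose livers they were lost without replicate 2 or 3 (Rhbg) or 1 or 3 (Axin2) of 5% as prevention, without replicate 1 or 3 (Cyp2e1) or any replicate (Rhbg) of 5% as therapy, and without replicate 1 (Rhbg) or 1 or 3 (Lgr5) of 20% as therapy. The highest adjusted p over the alternatives of these 6 was 0.0781 for Cyp2e1 and 0.194 for Lgr5, and the others lay between. The replicate block ended the calls of Rhbg with 5% as prevention (adjusted p 0.0527) and as therapy (adjusted p 0.055), and Tbx3 was higher under it with 20% as prevention (adjusted p 0.0432). Tbx3 was also called higher without replicate 2 of 20% as prevention (adjusted p 0.0306) and without replicate 1 of 5% as therapy (adjusted p 0.0392). Without normal diet replicate 3, Axin2 was called higher (adjusted p 0.00528) and Lgr5 lower (adjusted p 0.0348) with 5% as therapy.

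Mannose on normal diet was measured in batch 2. With 5% mannose 0 of the 10 genes were called with edgeR, where 0.0% of all genes tested were called, and with 20% mannose 0 of the 10, where 0.00542%, 1 gene, was called. DESeq2 called 0 of the 10 in both, and 41 and 67 of all genes tested. At an unadjusted p under 0.05 edgeR gave 0 of the 10 with 5% and 3 of the 10 with 20%, and 1039 and 1066 of all genes tested. Libraries did not overlap for 2 of the 10 genes with 5%, Glul and Axin2, and for 34.7% of all genes tested. They did not overlap for 2 with 20%, Cyp2e1 and Axin2, and for 21.7% of all genes tested.

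Cyp2e1 had 2990 and 5260 CPM on normal diet without mannose, 5220 and 6010 CPM with 5% mannose and 5530, 6400 and 5360 CPM with 20%. The low value was that of normal diet replicate 4, while replicate 5 lay within 1 SD of the group means with mannose (difference with 20% 0.48 ± 0.19). Glul had 349 and 695 CPM on normal diet without mannose, 698 and 836 CPM with 5% mannose and 673, 942 and 736 CPM with 20%. Leaving out normal diet replicate 4 or 5 leaves 1 library in that group, so only sizes are given. Without replicate 4, the log2 fold change of Cyp1a2 went from 0.30 to −0.06 with 5% mannose and from 0.09 to −0.26 with 20%. That of Lgr5 went from 0.41 to −0.21 with 5% and from 0.40 to −0.22 with 20%. Without replicate 5, that of Oat with 5% went from −0.07 to 0.33. Oat averaged 991 ± 343 CPM on normal diet without mannose, 941 ± 220 CPM with 5% and 1020 ± 311 CPM with 20%. Lhpp averaged 59.5 ± 9.03 CPM without mannose, 61.2 ± 12.6 CPM with 5% and 73.0 ± 17.8 CPM with 20%.

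The normal-diet livers of both batches, placed on one scale with all 25 libraries, overlapped for 8 of the 10 genes. Glul averaged 596 CPM in batch 2 and 987 CPM in batch 1, and Cyp1a2 616 CPM in batch 2 and 923 CPM in batch 1, without overlap. No test was made of this, and it is a reason why batches are kept apart.

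The effect of 20% mannose as prevention on FAT-MASH was set against its effect on normal diet. This used a fit of all 25 libraries with batch as a term. Each effect was taken within its own batch, that on FAT-MASH in batch 1 and that on normal diet in batch 2. The batch term therefore does not separate diet from batch in this difference. The effect was called different for 2 of the 10 genes, where 5.67% of the 21373 genes tested were called, 2.26% higher and 3.41% lower. For Cyp2e1 the effect on FAT-MASH was lower by 1.37 on the log2 scale than the effect on normal diet (−1.37 ± 0.28, edgeR adjusted p 0.00524), and this was lost without normal diet replicate 4 (adjusted p 0.0544, the highest of its alternatives). For Axin2 it was higher (1.07 ± 0.31, edgeR adjusted p 0.0438). The Axin2 call was lost in 10 of the leave-outs, those of normal diet replicates 1, 4 and 5, FAT-MASH replicates 1 and 3, normal diet with 20% mannose replicates 2 and 3, and each FAT-MASH liver with 20% as prevention, with adjusted p up to 0.126. Without normal diet replicate 5, which leaves replicate 4 alone in its group of batch 2, the difference was −3.69 for Rhbg and −1.92 for Lgr5. With library totals as scaling, 79.2% of all called genes were higher, where the TMM value was 39.9%.

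The other genes of the zone and of its signal were taken from lists. Of all genes tested, 5.92% fell and 7.81% rose on FAT-MASH. With 20% mannose 8.26% were lower and 6.83% higher as prevention, and 11.3% lower and 10.2% higher as therapy. The counts of the lists below are to be read beside these shares, which are those with TMM. Of 21 other pericentral hepatocyte genes, 8 fell and 2 rose on FAT-MASH, with a median log2 fold change of −0.44 beside 0.03 over all genes tested. Cyp2c29 (−2.28 ± 0.23) and Cyp2c50 (−1.71 ± 0.22), cytochromes of drug metabolism, and Slc22a3 (−2.61 ± 0.39), an organic cation transporter, were among those that fell, while Znrf3 (0.83 ± 0.13), which removes Wnt receptors from the cell surface, rose. Reads shared between the near-identical Cyp2c genes were not counted, so their levels are uncertain. With 20% mannose as therapy 8 of the 21 were lower than on FAT-MASH alone and 2 higher, among them Cyp2c50 (−2.65 ± 0.23), Rgn (−1.21 ± 0.14), which makes a lactonase of vitamin C synthesis, and Sult5a1 (−2.97 ± 0.49), while Gstm3 (2.03 ± 0.34), a glutathione transferase, was higher. With library totals as scaling 6 were lower and 3 higher. With 20% as prevention 4 fell and 3 rose, which became 3 and 4 with library totals as scaling.

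Among Wnt ligands, R-spondins and the factors that release them, 12 of 14 genes could be tested. On FAT-MASH Rspo1 (3.03 ± 0.54) and Wls (0.94 ± 0.26), the carrier of Wnt proteins to the surface, rose, and Wnt5b (−1.12 ± 0.25) and Porcn (−1.12 ± 0.28), which attaches the lipid of Wnt proteins, fell, with 3 higher and 2 lower in all. Rspo1 averaged 3.16 ± 1.0 CPM on FAT-MASH and 0.383 ± 0.0763 CPM on normal diet. The endothelial markers, 3 of 13 higher on FAT-MASH, moved with them, and their part in this was not tested. Rspo3, the main R-spondin of the central vein, was higher with 20% mannose as prevention than on FAT-MASH alone, at 10.1 ± 0.707 against 6.39 ± 0.752 CPM (0.66 ± 0.16), the only one of the 12 called there. With 20% as therapy Wnt5a was the only one called, and was higher (1.37 ± 0.37).

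Of 15 Wnt receptors, 3 fell on FAT-MASH, all frizzled receptors, Fzd8 (−0.88 ± 0.21), Fzd7 (−0.56 ± 0.15) and Fzd5 (−0.54 ± 0.17). Of 18 core genes of the beta-catenin pathway, 0 were called on FAT-MASH by edgeR, with 0 at an unadjusted p under 0.05. With 20% mannose as prevention Tcf7l2, a TCF partner of beta-catenin, was lower (−0.53 ± 0.12) and Tcf7 higher (0.73), with 2 higher and 1 lower in all, and as therapy 1 was higher and 1 lower. With library totals as scaling these counts were 7 higher and 0 lower as prevention, and 9 higher and 0 lower as therapy. Lgr4, another R-spondin receptor, was lower with 20% mannose as prevention (−0.54 ± 0.13) and as therapy (−0.76). Of the 15 receptors 2 were lower and 1 higher as prevention, where 15.1% of all genes tested were called. As therapy 3 were lower and 0 higher, where 21.4% were called. With library totals as scaling 1 was lower and 2 higher as prevention, and 2 lower and 4 higher as therapy.

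Of 19 Wnt feedback inhibitors and other targets, 3 rose and 2 fell on FAT-MASH, among them Tnfrsf19 (1.44 ± 0.20) and Ccnd1 (1.01 ± 0.29), which encodes cyclin D1, higher, and Nkd1 (−0.70 ± 0.21), an inhibitor of the pathway, lower. With 20% mannose Ccnd1 was higher than on FAT-MASH alone, both as prevention (3.03 ± 0.29) and as therapy (3.39 ± 0.30). With 20% as therapy 5 were higher and 1 lower, which was Notum (−0.62 ± 0.17), an enzyme that inactivates Wnt proteins. Cyclin D1 also belongs to cell division, and of 14 cell division genes 13 rose with 20% as prevention and 14 with 20% as therapy. Their summed level was 126 to 132 CPM with 20% as prevention and 173 to 441 CPM with 20% as therapy, against 35.8 to 44.5 CPM on FAT-MASH alone. Of 6 targets of the aryl hydrocarbon receptor, which also drives Cyp1a2, 0 were called on FAT-MASH by edgeR, with 1 at an unadjusted p under 0.05, and Ugt1a6a was lower with 20% as prevention (−0.76) and as therapy (−1.72).

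A further list held 21 genes of glutamine, glutamate and the urea cycle, which work beside Glul and Oat. On FAT-MASH 8 fell and 2 rose, among them Prodh, proline dehydrogenase (−1.14 ± 0.15), Asl, argininosuccinate lyase (−0.77 ± 0.14), and Nags (−0.53 ± 0.09), all lower. With 20% mannose as prevention 14 were lower and 0 higher, and as therapy 16 were lower and 1 higher, or 12 and 1, and 13 and 4, with library totals as scaling. Otc, which makes citrulline, averaged 245 ± 43.0 CPM with 20% as therapy and 748 ± 58.1 CPM on FAT-MASH alone (−1.61 ± 0.14).

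The opposite, periportal end of the lobule was read from 14 genes. On FAT-MASH 5 of them rose and 1 fell, with a median of 0.39. The steepest of those named, Mfsd2a, a lipid transporter, averaged 111 ± 41.2 CPM on FAT-MASH and 6.83 ± 1.55 CPM on normal diet (4.03 ± 0.32). With 20% mannose 7 were lower and 0 higher as prevention, and 9 were lower and 1 higher as therapy, and with library totals as scaling the counts were 7 and 0, and 8 and 1. Cyp2f2, the periportal cytochrome, averaged 388 ± 174 CPM with 20% as therapy and 1140 ± 86.5 CPM on FAT-MASH alone (−1.56 ± 0.24). Sds, serine dehydratase, and Hal, histidine ammonia lyase, had log2 fold changes of −3.22 and −2.60 there.

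**Figure D4:**
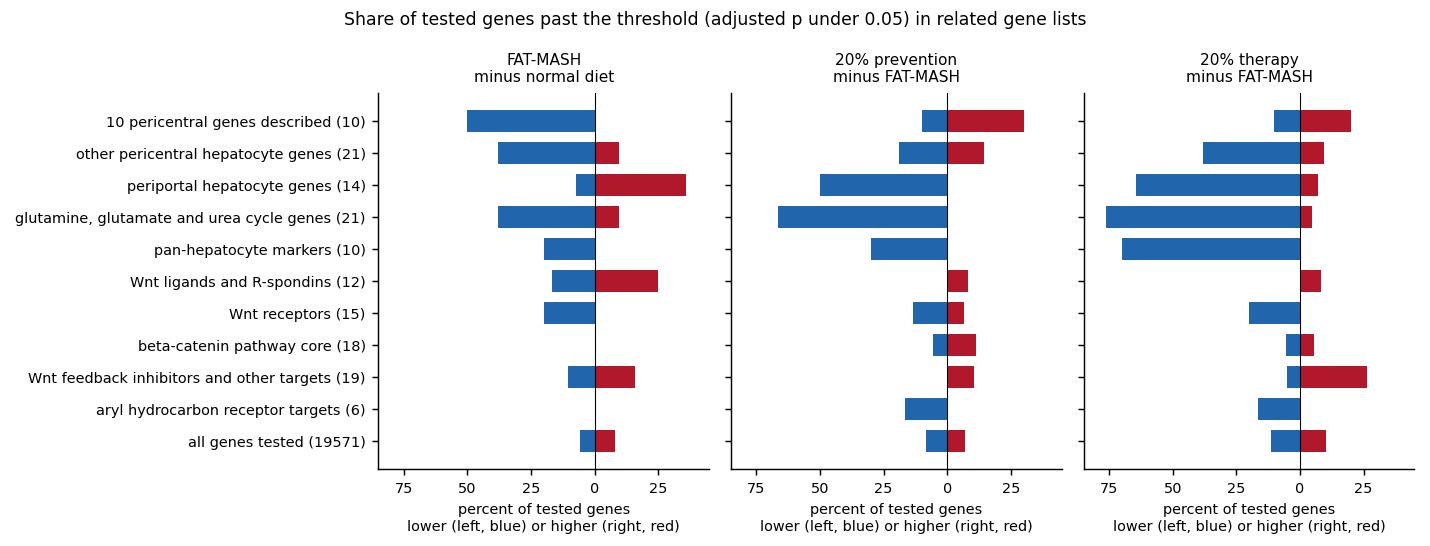
Percent of the tested genes of each list that edgeR called lower (blue, left of 0) or higher (red, right of 0), for FAT-MASH minus normal diet and for 20% mannose as prevention and as therapy minus FAT-MASH; the number of genes tested stands beside each list. Blue exceeds red for periportal genes in both mannose panels (7 of 14 lower as prevention, 9 of 14 as therapy), and red exceeds blue for them on FAT-MASH (5 of 14 higher).

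Markers of hepatocytes in general, of bile duct cells and of other cells also differed with 20% mannose. The 10 hepatocyte markers summed to 89400 to 109000 CPM with 20% as prevention and 77100 to 84200 CPM with 20% as therapy, against 105000 to 119000 CPM on FAT-MASH alone, with 3 and 7 of them lower. With library totals as scaling 4 were lower with therapy. The 8 cholangiocyte markers summed to 232 to 567 CPM with 20% as prevention and 186 to 797 CPM with 20% as therapy, against 122 to 140 CPM on FAT-MASH alone, with 5 and 6 of them higher. With 20% as therapy the 9 neutrophil and lymphocyte markers summed to 20.1 to 27.6 CPM, against 13.1 to 16.3 CPM on FAT-MASH alone, and S100a8 (1.03 ± 0.35) and S100a9 (1.03 ± 0.28) were higher, 2 of the 7 tested. The 10 stellate cell and fibroblast markers summed there to 567 to 1120 CPM, against 520 to 673 CPM on FAT-MASH alone, with 2 higher, Des (0.66 ± 0.20) and Pdgfrb (0.75 ± 0.24), and with library totals as scaling 6 were higher. The part of these cells in the fall of Cyp2e1 was not tested.

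For each of the 10 genes, the genes with the closest profile were found among 12144 genes with a mean of at least 1 CPM, by the root mean square difference between centred log2 group means over the 6 groups of batch 1. The closest to Cyp2e1 was Cyp2f2, with a difference of 0.10, a gene of the periportal list, and then Dsg1c and Ugt2b1, both with 0.12. Closest to Glul was Avpr1a, the vasopressin receptor of the liver, with 0.12. Closest to Oat were Nxpe2, with 0.12, and Enho, with 0.14, and Enho was also the closest to Lhpp, with 0.16. Idi1 (0.20), next for Oat, and those next for Lhpp, Nsdhl (0.20) and Cyp51 (0.21), all encode enzymes of cholesterol synthesis. Closest to Slc1a2 was Pcp4l1 (0.14), to Cyp1a2 Ces2a (0.17), to Axin2 Spag9 (0.04), to Tbx3 Dnajc12 (0.15), to Rhbg Neb (0.16) and to Lgr5 Ndufb3 (0.05).

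The 10 genes thus varied by different amounts among the 6 groups of batch 1. The highest and lowest group means of Oat differed by 3.52 on the log2 scale, of Lhpp by 3.22, of Cyp1a2 by 2.59, of Slc1a2 by 2.29 and of Cyp2e1 by 2.07. The range was 1.78 for Rhbg, 1.71 for Glul, 1.14 for Axin2 and 0.98 for both Lgr5 and Tbx3. The pair farthest apart was Oat and Axin2, with a difference of 1.41 between their profiles. Of 70 pairs of groups next to each other in the order of means, over the 10 genes and both batches, libraries overlapped for 56 and did not for 14. For Glul, Oat, Lhpp and Cyp1a2 the normal-diet group stood above the rest without overlap and the FAT-MASH groups next to each other all overlapped. For Slc1a2 the livers with 20% as prevention formed a second step between normal diet and the others. For Cyp2e1 the order was normal diet, FAT-MASH alone, the groups with 5% as therapy, 5% as prevention and 20% as prevention, which overlapped with their neighbours, and last 20% as therapy, with a gap at each of the other steps.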

How the data were processed

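Liver RNA of 25 mice in 8 groups was sequenced after poly-A selection. The deposited table holds raw counts per gene that the authors made with STAR on GRCm39 and featureCounts 2.0.6, per the submitters' processing notes; the file header names featureCounts 2.0.1 and GENCODE mouse release 31. No option for strand or multiply aligned reads stands in the header's command, so by default strand was not used and multiply aligned reads were not counted. Of 56980 genes, 52073 carry a symbol.

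Tests on the counts used edgeR 4.0.16 under R 4.3.3 (glmQLFit and glmQLFTest, TMM, filterByExpr, Benjamini-Hochberg over all genes tested, threshold 0.05). The fits held 18 libraries of batch 1 (19571 genes), 7 of batch 2 (18462 genes), or all 25 with a batch term (21373 genes). SE is the log2 fold change divided by the square root of F. Depth was 31298299 to 56010646 counts per library, and Rhbg had the fewest. No 2 replicates agreed within sampling noise: chi-square divided by its degrees of freedom was at least 19.3. Same-numbered samples deviated together by r of −0.162 to 0.179 over 45 pairs, 1 of them over 0.1. In batch 2 r was −0.0166 to 0.0632 over 6 pairs. These 6 are not independent, since deviations within a group of 2 libraries mirror each other. Numbers were not taken to pair mice, but these correlations cannot exclude a pairing, and a replicate block was run as an alternative. The tests were tried on simulated counts. For FAT-MASH minus normal diet, 65% of simulated log2 changes of 1 and 92% of those of 2 were recovered. For 20% mannose on normal diet these shares were 60% and 85%. Of the calls, 5.42% and 12.1% were false in these 2 comparisons.

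Alternatives were DESeq2 1.42.0, RLE size factors, library totals, no filter, limma 3.58.1 voom with quality weights, other sets of libraries, a replicate block, and leaving out each library. Scaling of the gene lists, and dose by schedule, were added after seeing the data. The 10 genes and all lists were chosen with earlier results of these data known. From each list, up to 4 genes past the threshold with the smallest p were named, and the 3 closest profiles were found for each of the 10. Log2 profiles used 0.1 CPM as pseudocount.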

Additional observations from a re-analysis of the deposited data

Results flagged for a closer look

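The effect of 20% mannose differed between diets for 2 of the 10 genes in the fit of all 25 libraries. For Cyp2e1 the effect on FAT-MASH as prevention minus that on normal diet was −1.37 ± 0.28 on the log2 scale (edgeR adjusted p 0.00524). On FAT-MASH all 3 livers with this mannose lay below all 3 without it, and on normal diet all 3 lay above both livers without it, 1 of which was the low normal diet replicate 4. For Axin2 the difference was 1.07 ± 0.31 (edgeR adjusted p 0.0438), with all 3 mannose livers above all 3 without it on FAT-MASH and all 3 below both on normal diet. The effects on each diet were measured in different batches. The batch term drops out of the difference between diets, so diet and batch cannot be told apart in it. The difference between 20% and 5% mannose on FAT-MASH also differed between therapy and prevention for 2 genes. For Cyp2e1 it was −1.25 ± 0.24 (edgeR adjusted p 0.0133), and for Tbx3 −1.69 ± 0.35 (edgeR adjusted p 0.0182), with 6 livers at each dose. Each of these calls, between diets and between schedules, was lost when certain single libraries were left out. That of Axin2 was also lost under the replicate block.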

How the results depend on the processing

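Over all alternatives 2350 values of single genes were recomputed, of which 2097 kept their direction and side of the threshold, 86 passed it newly and 78 no longer passed. A sign changed in the other 89, values that passed in neither fit, and in 0 that passed.

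The number of the 10 genes called changed by over 1.5 times as follows. For 5% as prevention minus FAT-MASH, 1 by default, it was 0 with library totals and with all 25 libraries, and 3 without the filter on low counts. For 20% as prevention, 4 by default, it was 7 with library totals and 7 without the filter. For 5% as therapy it was 3 without the filter. For 20% as therapy, 3 by default, it was 6 with library totals, 6 without the filter and 5 with only the groups compared. For 20% minus 5% mannose, 1 by default, it was 2 with DESeq2, 2 with voom, 3 with library totals, 4 without the filter, 3 with only the groups compared, 0 with prevention alone and 3 with therapy alone. For the dose difference between schedules, 2 by default, it was 4 without the filter. On normal diet it was 1 with 5% and 3 with 20% without the filter. The cause was not tested, apart from library totals, which move all genes together. With prevention alone and with therapy alone, 0.445% and 17.7% of all genes tested were called for dose. For the other fits of this section that share is not given, so their counts show nothing particular to the 10 genes.

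Leaving out 1 library at a time gave 5 to 7 genes for FAT-MASH minus normal diet, 0 to 1 for 5% and 2 to 5 for 20% as prevention, 0 to 0 for 5% and 1 to 3 for 20% as therapy, each minus FAT-MASH. Minus normal diet it gave 7 to 9 for 5% and 9 to 10 for 20% as prevention, and 5 to 9 for 5% and 7 to 9 for 20% as therapy. It gave 1 to 2 for dose, 0 to 0 for schedule and 0 to 3 for the dose difference between schedules. On normal diet and between diets some of these fits leave 1 library in a group, so no range is given.

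With the replicate number as a block, 0 genes were called for 5% as prevention minus FAT-MASH, and 5, 4, 0 and 2 for FAT-MASH minus normal diet, 20% as prevention, 5% as therapy and 20% as therapy. Against normal diet the block gave 8, 10, 6 and 9 for 5% prevention, 20% prevention, 5% therapy and 20% therapy, with 1 for dose and 0 for schedule. In batch 2 the block used the numbers 11 to 13 that end the library names in the table. Glul, Oat, Lhpp, Slc1a2, Rhbg and Lgr5 were lower under 11 than 13 in all 3 groups. Axin2 and Tbx3 were higher under 11 in all 3, and Cyp2e1 and Cyp1a2 did not keep a direction. Over all genes, not every library correlated best with its own number. The block gave 1 gene for 5% mannose on normal diet, Glul (0.61, edgeR adjusted p 0.0352), and 0 for 20%. For the difference between diets it gave 1, where Axin2 no longer passed (adjusted p 0.0866), and for dose by schedule 2. Rhbg had the fewest counts, 10 to 108 a library.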
